A study of Mus musculus with 6 samples.

Results

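The genes of glycolysis, lactate handling and the pentose phosphate pathway were examined as a set of 36 genes, chosen by symbol for their place in these pathways, out of 46078 genes in the count tables. All 36 were found. The aim was to compare, at each step, the paralogous genes that encode the same activity between chronic stroke infarcts and the contralateral cortex. RNA-Seq had been performed on 3 infarcts and 3 contralateral cortices of wild-type male C57BL/6J mice, given in the sample records as 3 months old and as collected 7 weeks after stroke. Both groups therefore came from animals with a stroke, and no unoperated or sham group was part of this comparison. Stroke had been induced with the DH model, in which permanent occlusion of the distal middle cerebral artery is combined with hypoxia. Infarcts were identified by eye and cut out, and the matching region of the other hemisphere was taken as the contralateral cortex. The records number the libraries within each region and do not say which infarct and cortex came from the same mouse, or that each library came from a separate mouse, so *p* values measure the spread between these samples.

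Glycolysis splits glucose into pyruvate in a chain of steps that begins with phosphorylation by hexokinase and is gated by phosphofructokinase. Pyruvate can enter mitochondria through the pyruvate dehydrogenase complex or be reduced to lactate by lactate dehydrogenase, and lactate crosses membranes through monocarboxylate transporters. The pentose phosphate pathway branches off after hexokinase and yields NADPH, which supports lipid synthesis, antioxidant defense and the oxidative burst of phagocytes. In brain, many of these steps have a paralog typical of neurons and others typical of glia, immune cells or muscle.

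Each infarct library held between 12146959 and 13427057 gene counts, and each contralateral library between 11943570 and 19933962. Of these counts the members took 0.382% to 0.440% per infarct and 0.471% to 0.556% per contralateral cortex. Tissue composition differed between the regions. All 10 neuron markers were lower in infarcts by the test used below, and their summed level was 696, 1027 and 1839 CPM (library counts scaled with TMM to a common total) in infarcts 1, 2 and 3 against 9803 to 10704 CPM in contralateral cortices. Of 12 microglia and macrophage markers, 11 were higher in infarcts, with a sum of 2282 to 2994 CPM against 327 to 434 CPM. All 6 fibroblast markers were higher (6762 to 8474 CPM against 80.5 to 119 CPM), as were 4 of 8 oligodendrocyte markers (4411 to 7101 CPM against 2237 to 2664 CPM). Of 9 astrocyte markers, 3 were higher and 1 was lower, and 6 were higher by adjusted *p* alone. Beside these marker counts, 25.7% of all tested genes were called higher and 20.9% lower, and 34.2% were higher by adjusted *p* alone. The share of astrocyte markers called higher was not far from that of all tested genes. The astrocyte sum was 5402 to 7840 CPM against 13282 to 14274 CPM. In contralateral cortices *Slc1a2* carried most of it, and the other 8 summed to 3026 to 3918 CPM in infarcts against 1279 to 1490 CPM. The part of these shifts in each result was not tested. In bulk tissue, fewer cells of a type and less RNA per cell cannot be told apart.

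Of the 36 members, 35 had enough counts to be tested. With edgeR's quasi-likelihood test, a call required a Benjamini-Hochberg adjusted *p* under 0.05 over the 15554 tested genes and a log2 fold change beyond 1. By this rule 10 members were higher in infarcts, where 25.7% of all tested genes were called higher, and 8 were lower, where 20.9% of all tested genes were called lower. By adjusted *p* alone, the same 10 were higher against 34.2% of all tested genes, and 18 were lower against 30.8%. The 3 libraries of a region did not overlap those of the other in 12 members that were higher in infarcts, against 37.6% of all tested genes, and in 18 that were lower, against 34.7%. The median log2 fold change of the tested members was -0.45, and that of all tested genes was 0.03. The members called higher were *Hk2*, *Hk3*, *Pfkfb3*, *Pfkfb4*, *Eno3*, *Slc16a1*, *Slc16a3*, *G6pdx*, *Pgd* and *Taldo1*. The members called lower were *Hk1*, *Pfkm*, *Pfkp*, *Pfkfb2*, *Pgam1*, *Eno2*, *Ldhb* and *Slc2a3*. The plot of log2 fold changes by step shows that several steps held members of both kinds.

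**Figure D1:**
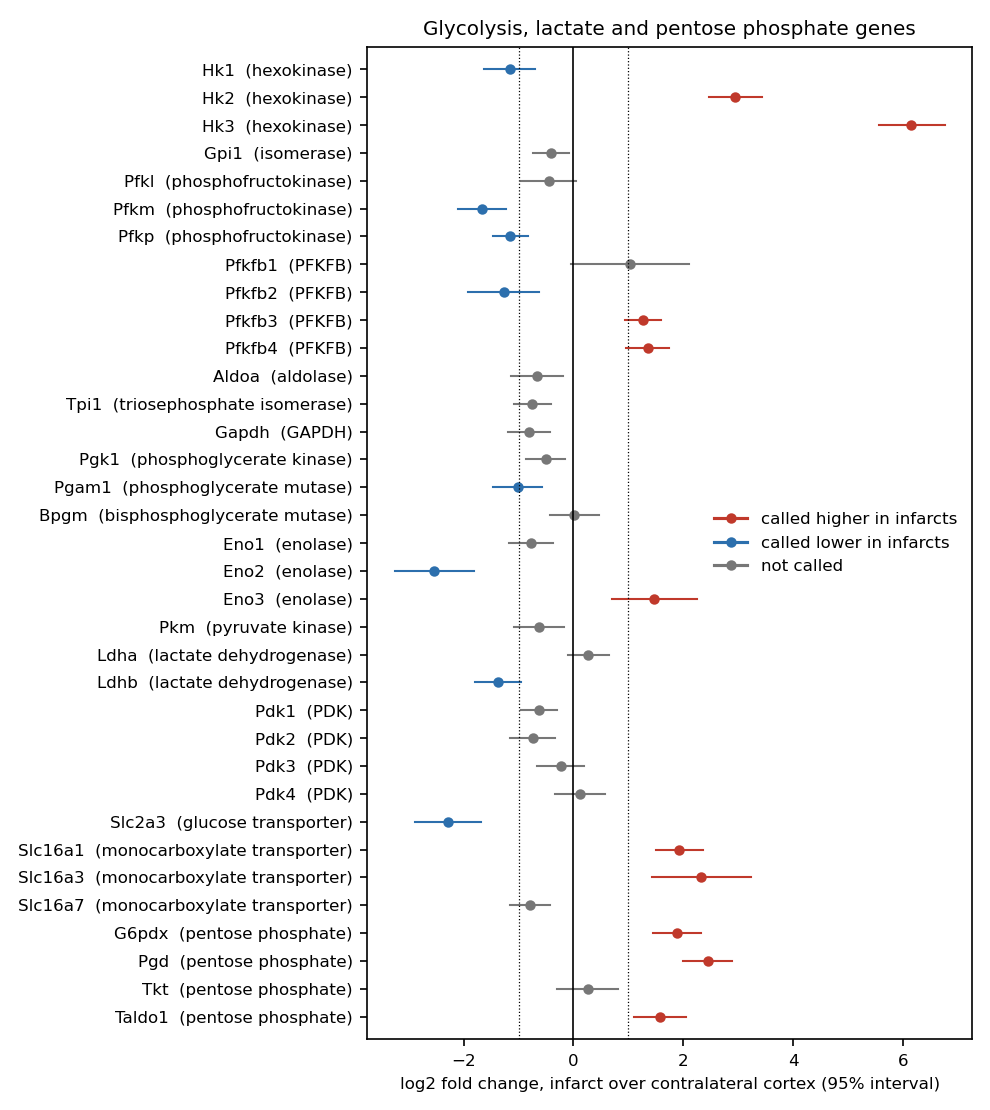
Log2 fold change, infarct over contralateral cortex, of the 35 tested members in pathway order, with the step in brackets. Points are edgeR estimates and lines their 95% intervals, dotted lines mark a log2 fold change of 1 in either direction, and the estimates run from -2.53 for Eno2 to 6.14 for Hk3.

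Promoter sequences are shown for genes on which the paralog comparisons turn: a hexokinase called higher in infarcts, the pair of lactate dehydrogenase genes whose ratio differed between the regions, and the pair of lactate transporters called higher. Each is the RefSeq window on GRCm38.p6 that lies mostly before, and ends just after, the listed start, written 5′ to 3′ on the gene's strand. Capitals mark ACGTG on either strand (CACGT on the strand shown). It is a form of the core RCGTG (R is A or G) recognized by hypoxia-inducible factors. The other form, GCGTG, was neither marked nor counted. Where CACGTG occurs, both strands match and overlap, and each is counted. The windows are *Hk2* at chr6:82774405-82774704 (minus strand), *Ldha* at chr7:46845554-46845853 (plus), *Ldhb* at chr6:142507908-142508207 (minus), *Slc16a1* at chr3:104638414-104638713 (plus) and *Slc16a3* at chr11:120948817-120949116 (plus).
Hk2: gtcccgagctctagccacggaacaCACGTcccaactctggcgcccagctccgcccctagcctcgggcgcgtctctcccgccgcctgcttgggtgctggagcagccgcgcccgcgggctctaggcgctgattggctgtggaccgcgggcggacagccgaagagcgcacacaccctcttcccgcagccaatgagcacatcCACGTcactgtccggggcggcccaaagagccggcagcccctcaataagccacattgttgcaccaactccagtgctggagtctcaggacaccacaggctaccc
Ldha: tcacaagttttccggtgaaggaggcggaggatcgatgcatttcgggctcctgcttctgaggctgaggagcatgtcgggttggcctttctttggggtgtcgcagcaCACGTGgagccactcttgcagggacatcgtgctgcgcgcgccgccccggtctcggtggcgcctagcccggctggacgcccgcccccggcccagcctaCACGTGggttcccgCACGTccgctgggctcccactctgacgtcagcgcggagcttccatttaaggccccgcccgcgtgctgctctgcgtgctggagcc
Ldhb: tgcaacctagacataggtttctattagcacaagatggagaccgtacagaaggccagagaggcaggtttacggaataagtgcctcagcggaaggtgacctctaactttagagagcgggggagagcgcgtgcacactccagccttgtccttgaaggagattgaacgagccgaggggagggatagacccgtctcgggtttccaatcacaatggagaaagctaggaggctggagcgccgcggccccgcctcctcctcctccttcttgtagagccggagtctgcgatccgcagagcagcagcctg
Slc16a1: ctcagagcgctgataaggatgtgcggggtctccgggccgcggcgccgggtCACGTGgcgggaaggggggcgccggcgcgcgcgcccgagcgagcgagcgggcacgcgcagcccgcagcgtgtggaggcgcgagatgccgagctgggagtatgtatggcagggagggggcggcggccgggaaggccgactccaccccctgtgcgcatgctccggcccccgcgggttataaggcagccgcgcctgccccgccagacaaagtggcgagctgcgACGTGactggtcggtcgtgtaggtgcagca
Slc16a3: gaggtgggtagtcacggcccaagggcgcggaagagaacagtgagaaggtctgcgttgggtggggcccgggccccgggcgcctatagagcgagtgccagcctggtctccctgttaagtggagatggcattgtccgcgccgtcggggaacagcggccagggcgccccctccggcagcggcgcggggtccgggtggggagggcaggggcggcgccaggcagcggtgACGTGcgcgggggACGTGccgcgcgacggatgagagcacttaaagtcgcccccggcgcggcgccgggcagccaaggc
The *Ldha* window held 5 matches to ACGTG, the *Slc16a1* window 3, the *Hk2* and *Slc16a3* windows 2 each, and the *Ldhb* window 0. GCGTG, which was not counted, occurs in the *Ldha*, *Ldhb* and *Slc16a1* windows. Of the members, 34 had a listed window, and 14 of these (41.2%) held the motif, against 3627 of 17492 protein-coding genes (20.7%) and 5315 of 27025 genes of all kinds (19.7%). It was present in 6 of 10 members called higher, in 3 of 7 called lower and in 5 of 16 that were tested but not called. The listed starts of *Ldha* and *Slc16a3* lie inside their GENCODE genes, which begin at 46841475 on chromosome 7 and 120948480 on chromosome 11, and a window need not hold the start used most in brain. A match describes letters in the window and was not tested for binding.

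Glucose enters cells through transporters of the SLC2A family. *Slc2a3*, which encodes the neuronal transporter GLUT3, was at 25.0, 45.6 and 56.1 CPM in infarcts and at 205, 210 and 200 CPM in contralateral cortices (listed here and below in the order of libraries 1, 2 and 3). Every infarct lay far below every contralateral cortex. The log2 fold change was -2.28 ± 0.27 (SE; edgeR adjusted *p* = 7.11e-05). *Slc2a1*, which encodes GLUT1 of the blood-brain barrier and astrocytes, overlapped between the regions at 120 to 189 CPM in infarcts against 112 to 198 CPM (log2 fold change 0.08 ± 0.24, edgeR adjusted *p* = 0.778). The log2 ratio of *Slc2a3* to *Slc2a1*, per kilobase of exon, averaged -2.97 ± 0.86 (SD, n = 3) in infarcts and -0.51 ± 0.41 in contralateral cortices without overlap. Of the other transporters listed, *Slc2a4*, the insulin-responsive GLUT4, was higher in infarcts (log2 fold change 2.22 ± 0.25, edgeR adjusted *p* = 3.54e-05), and *Slc2a5*, a fructose transporter found in microglia, was lower (-1.62 ± 0.35, adjusted *p* = 0.00255).

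Hexokinase, which traps glucose in the cell, showed the widest shift between paralogs: of the 18 ratios compared, the log2 ratio of *Hk3* to *Hk1* per kilobase differed most, by 7.29. That of *Hk2* to *Hk1* differed by 4.10, close to the 4.13 of *Eno3* to *Eno2*. *Hk1* (chr10:62268855-62379908, GRCm38) encodes the main hexokinase of brain. It was at 76.2, 68.2 and 103 CPM in infarcts and 179, 150 and 226 CPM in contralateral cortices. *Hk2* (chr6:82725025-82774454), typical of muscle, fat and activated cells, was at 50.7, 36.5 and 38.1 CPM against 5.43, 4.49 and 6.37 CPM. *Hk3* (chr13:55005985-55021385) is expressed mainly by myeloid cells, and its deposited counts were 826, 625 and 702 in infarcts against 14, 14 and 6 on the contralateral side. The regions did not overlap for any of the 3 genes. The log2 fold change was -1.16 ± 0.20 for *Hk1* (edgeR adjusted *p* = 7.00e-04), 2.95 ± 0.21 for *Hk2* (2.28e-06) and 6.14 ± 0.27 for *Hk3* (1.79e-07). *Hk1* passed the fold threshold narrowly. Without contralateral cortex 3 its log2 fold change was -0.997, short of the threshold.

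Compared per kilobase of merged exons, *Hk1* made up 95.1% ± 0.51 of the summed hexokinase level in contralateral cortices and 31.2% ± 6.5 in infarcts (SD, n = 3 each). The share of *Hk2* was 4.02% ± 0.14 in contralateral cortices and 22.5% ± 1.9 in infarcts, and that of *Hk3* was 0.927% ± 0.40 and 46.3% ± 4.6. *Hk3* was thus at the top of the order in infarcts on this scale. With the length of the longest coding transcript the mean of *Hk1* was higher there (44.4% ± 7.5 against 38.1% ± 5.3 for *Hk3*). The infarct ranges then overlapped, at 37.6% to 52.4% for *Hk1* and 32.5% to 43.1% for *Hk3*. The order of the 2 means in infarcts therefore depends on the length used, whereas in contralateral cortices *Hk1* led by both lengths. The summed hexokinase level overlapped between the regions, at 26.6 to 35.3 CPM per kilobase in infarcts and 18.5 to 27.7 in contralateral cortices, and its log2 difference changed sign with the length used, from 0.45 with merged exons to -0.02 with coding transcripts. Neutrophil markers were low: *Elane* was at 0 in every library, *Ly6g* had 2 counts in all, and the summed level of the 9 markers was 55.2 to 67.5 CPM in infarcts and 4.75 to 6.28 in contralateral cortices, most of it from *Csf3r*. All 4 neutrophil markers that were tested were called higher, against 25.7% of all tested genes, and their part in the *Hk3* result was not tested. *Hkdc1*, a further hexokinase-related gene, was lower in infarcts (log2 fold change -3.03 ± 0.48, edgeR adjusted *p* = 4.37e-04), and the ADP-dependent glucokinase gene *Adpgk* was higher (1.29 ± 0.20, adjusted *p* = 3.38e-04).

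**Figure D2:**
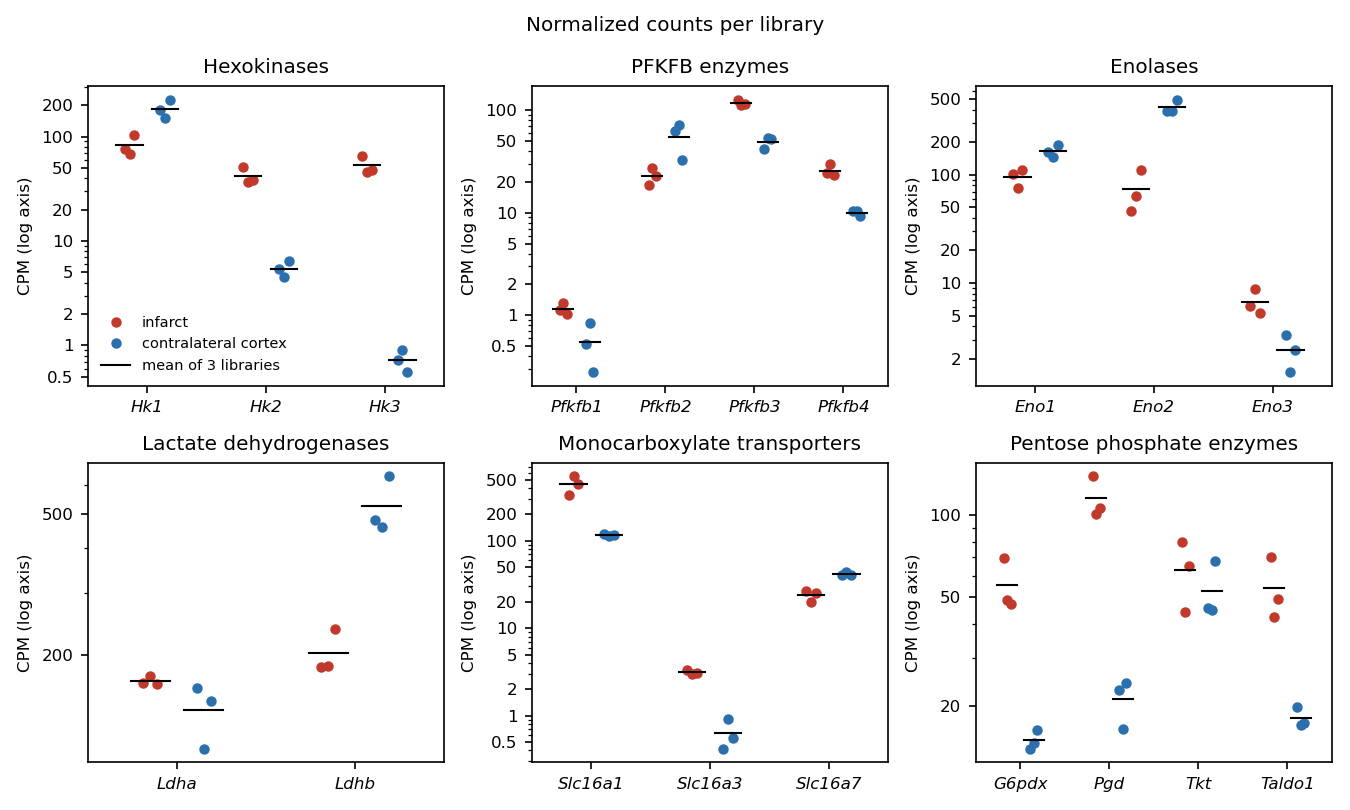
Normalized counts (TMM CPM, log axis) of paralogs at 6 steps in each infarct (red) and contralateral cortex (blue), with black bars for the mean of 3 libraries. The regions overlap only for Tkt among the genes drawn, and Hk3 shows the widest gap, from below 1 CPM in contralateral cortices to 45.9 CPM or more in infarcts.

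Phosphofructokinase commits sugar to glycolysis. *Pfkm*, the muscle-type subunit that also predominates in brain, was at 85.0, 83.1 and 125 CPM in infarcts and 277, 307 and 344 CPM in contralateral cortices. *Pfkp*, the platelet-type subunit, was at 68.4, 56.4 and 70.7 CPM against 149, 141 and 143 CPM. Neither gene overlapped between the regions, and the log2 fold changes were -1.67 ± 0.19 for *Pfkm* (edgeR adjusted *p* = 4.69e-05) and -1.15 ± 0.14 for *Pfkp* (7.00e-05). *Pfkl*, the liver-type subunit, was at 28.6 to 47.3 CPM in infarcts and 40.0 to 53.4 CPM in contralateral cortices, which overlapped (log2 fold change -0.45, 95% interval -0.95 to 0.04, edgeR adjusted *p* = 0.0976). The share of *Pfkl* in the summed level per kilobase was 13.3% ± 0.83 in infarcts and 6.57% ± 1.2 in contralateral cortices, without overlap, while *Pfkm* held the largest share in both regions. The summed phosphofructokinase level was 39.4 ± 9.0 CPM per kilobase in infarcts and 111 ± 9.8 in contralateral cortices.

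The PFKFB enzymes make and degrade fructose 2,6-bisphosphate, the strongest activator of phosphofructokinase. *Pfkfb3*, whose product favors synthesis of the activator, was at 127, 113 and 116 CPM in infarcts and 42.3, 53.5 and 52.1 CPM in contralateral cortices. *Pfkfb4* was at 24.3, 29.7 and 23.1 CPM against 10.5, 10.4 and 9.32 CPM. *Pfkfb2*, the heart-type enzyme, was at 18.7, 27.4 and 23.0 CPM against 62.7, 71.2 and 32.9 CPM. The regions were separate for all 3 genes, although contralateral cortex 3 came closest to the infarcts for *Pfkfb2*. The log2 fold changes were 1.27 ± 0.15 for *Pfkfb3* (edgeR adjusted *p* = 4.60e-05), 1.35 ± 0.17 for *Pfkfb4* (9.73e-05) and -1.27 ± 0.28 for *Pfkfb2* (0.00348). *Pfkfb2* shares 17.4% of its exon bases with another gene on the same strand. *Pfkfb1*, the liver-type enzyme, stayed near 1 CPM or below and was not called (1.02, 95% interval -0.05 to 2.11, edgeR adjusted *p* = 0.085). The shares shifted between the regions: *Pfkfb2* averaged 45.7% ± 10 of the PFKFB level per kilobase in contralateral cortices and 13.0% ± 2.3 in infarcts, and *Pfkfb3* 40.7% ± 9.4 and 64.3% ± 4.4. Within contralateral cortices the shares of *Pfkfb2* and *Pfkfb3* differed by less than their spread. *Tigar*, which degrades the same activator, was lower in infarcts (-1.34 ± 0.25, edgeR adjusted *p* = 0.00103).

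At the steps of the glycolytic trunk that had 1 listed gene, *Gpi1*, *Aldoa*, *Tpi1*, *Gapdh*, *Pgk1* and *Pkm* had log2 fold changes between -0.81 and -0.41, all 6 passed the adjusted *p* threshold and none passed the fold threshold. By adjusted *p* alone, 30.8% of all tested genes were lower. *Gapdh*, often used as a reference gene, was at 509, 437 and 468 CPM in infarcts and 768, 971 and 747 CPM in contralateral cortices, so the regions did not overlap (log2 fold change -0.81 ± 0.17, edgeR adjusted *p* = 0.00195). *Pkm*, which encodes pyruvate kinase, was at 387, 288 and 399 CPM against 496, 470 and 694 CPM (-0.63 ± 0.20, edgeR adjusted *p* = 0.0215). Gene counts do not separate the M1 and M2 splice forms of *Pkm*. *Aldoa* was at 441 to 547 CPM against 567 to 937 CPM, and its astrocytic paralog *Aldoc* at 151 to 273 CPM against 337 to 477 CPM (log2 fold changes -0.66 ± 0.21 and -0.99 ± 0.24, edgeR adjusted *p* = 0.0177 and 0.0053). The ratio of *Aldoa* to *Aldoc* overlapped between the regions (two-sided exact permutation *p* = 0.2). *Aldoc* lay at the edge of the fold threshold and was called lower without infarct 3 (-1.27), contralateral cortex 1 (-1.05) or contralateral cortex 2 (-1.09).

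Several trunk genes have near-identical copies, and reads with several alignments were not counted. Of the possible 75-base reads of *Pgk1* transcripts, 52.8% also occur in transcripts of other genes, as do 34.9% for *Pgam1*, 23.0% for *Eno1*, 22.6% for *Gapdh* and 12.6% for *Ldhb*. These shares take reads singly, whereas the libraries held read pairs, and the share of pairs affected was not determined. The levels of *Pgk1*, *Pgam1*, *Eno1*, *Gapdh* and *Ldhb* are therefore uncertain, and the shares of such genes within a step may be too low. *Pgam1*, the main phosphoglycerate mutase of brain, was at 61.8, 64.0 and 74.9 CPM in infarcts and 129, 102 and 174 CPM in contralateral cortices (log2 fold change -1.01 ± 0.20, edgeR adjusted *p* = 0.00141). Its call lay at the edge of the fold threshold: the value was -0.93 without infarct 1, -0.96 without infarct 2 and -0.79 without contralateral cortex 3. *Pgam2*, the muscle form, had 3, 4 and 8 counts in infarcts and 5, 9 and 5 in contralateral cortices, and was not tested. *Bpgm*, which makes 2,3-bisphosphoglycerate and is most abundant in red blood cells, did not separate the regions (0.01, 95% interval -0.43 to 0.46, edgeR adjusted *p* = 0.962). The 7 red blood cell markers summed to 10.9 to 32.9 CPM in infarcts and 1.30 to 4.39 CPM in contralateral cortices. Of those tested, 3 of 3 were called higher, against 25.7% of all tested genes.

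Enolase forms phosphoenolpyruvate. *Eno2* (chr6:124760053-124769673), the neuron-specific enolase, was at 46.0, 63.1 and 111 CPM in infarcts and 390, 390 and 494 CPM in contralateral cortices. Every infarct was lower than every contralateral cortex, with infarct 3 the highest of the infarcts. The log2 fold change was -2.53 ± 0.31 (edgeR adjusted *p* = 1.34e-04), the lowest among the tested members. *Eno1*, the form of most other cells, was at 101, 76.2 and 112 CPM against 161, 144 and 187 CPM (-0.77 ± 0.18, edgeR adjusted *p* = 0.00352, short of the fold threshold). *Eno3*, the muscle form, was at 6.13, 8.74 and 5.32 CPM against 3.34, 1.50 and 2.40 CPM and was called higher (1.46 ± 0.34, edgeR adjusted *p* = 0.00398). Of 11 skeletal muscle markers, 2 could be tested, of which *Acta1* was lower and *Actn3* was not called, and their sum was 2.87 to 4.19 CPM in infarcts and 11.7 to 15.1 CPM in contralateral cortices. *Acta1* carried most of the contralateral sum, and without it the other 10 markers overlapped, at 2.25 to 3.51 CPM against 2.61 to 3.97 CPM. Some untested markers had more counts in infarcts, with 7, 12 and 7 against 0, 1 and 0 for *Tnni2* and 7, 5 and 8 against 0, 1 and 0 for *Mylpf*. Others had fewer, with 0, 0 and 0 against 13, 6 and 20 for *Myh2*. The counts were 0, 3 and 1 against 6, 9 and 5 for *Myh1*, and 0, 3 and 0 against 7, 7 and 4 for *Mb*. The part of muscle RNA in the *Eno3* result was not tested.

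Within the enolases, *Eno2* held 73.9% ± 1.5 of the level per kilobase in contralateral cortices and 40.5% ± 9.6 in infarcts, and *Eno1* held 25.0% ± 1.0 and 48.6% ± 8.6. In infarcts the shares of *Eno1* and *Eno2* differed by less than their spread, and *Eno1* was above *Eno2* in infarcts 1 and 2 but not in infarct 3. The log2 ratio of *Eno1* to *Eno2* was 0.28 ± 0.59 in infarcts and -1.56 ± 0.09 in contralateral cortices, a difference of 1.84 without overlap. The summed enolase level was 37.4 ± 8.7 CPM per kilobase in infarcts and 122 ± 17 in contralateral cortices.

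**Figure D3:**
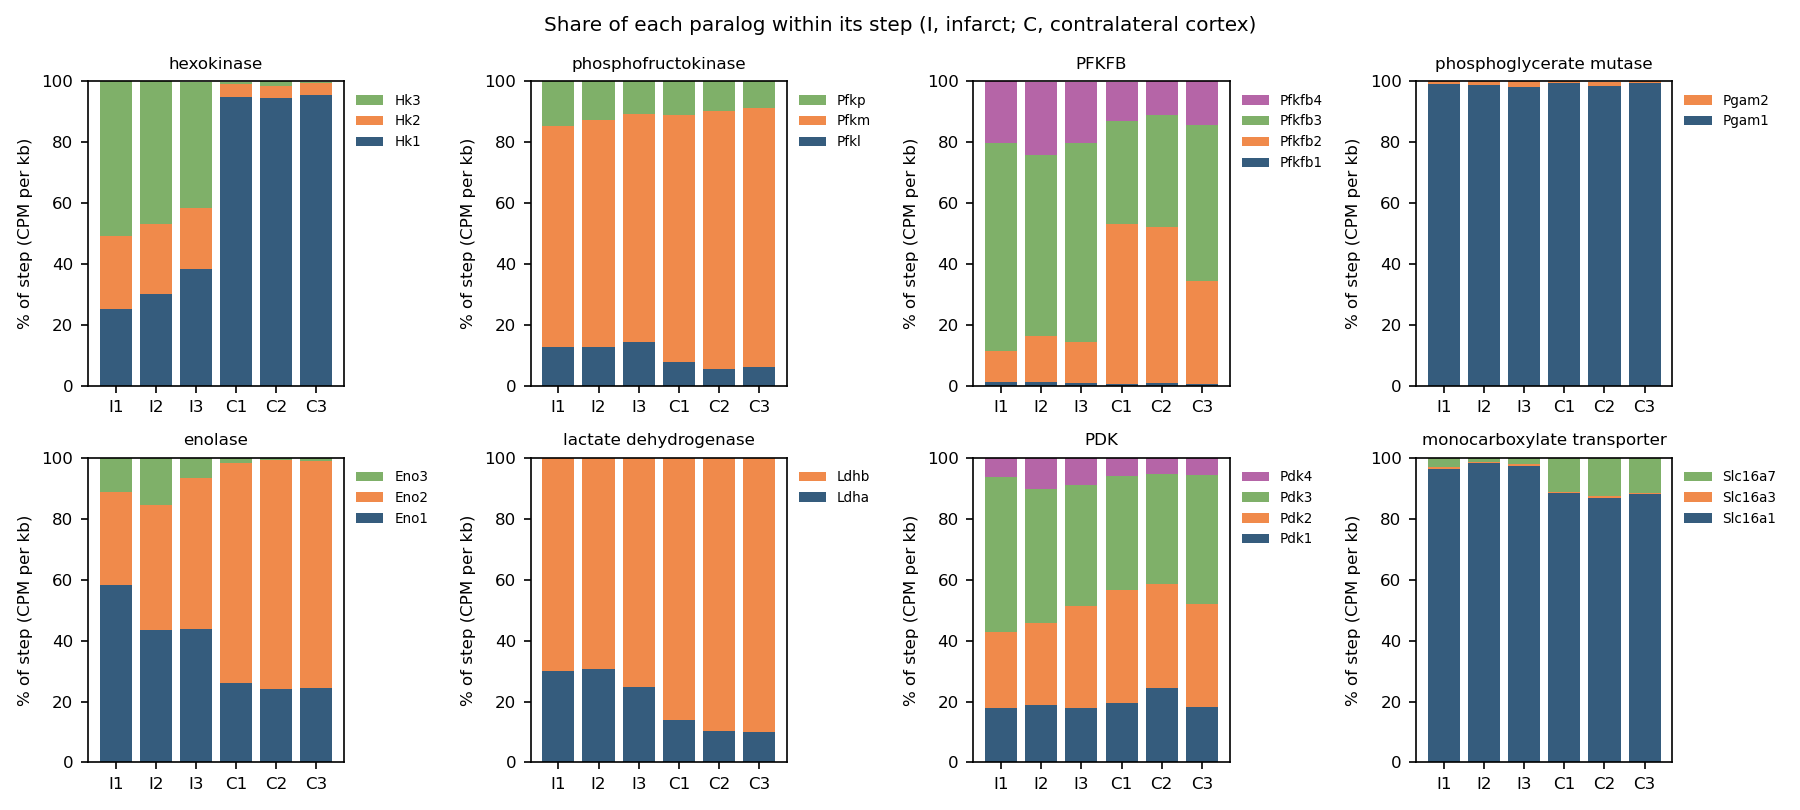
Share of each paralog in the summed level of its step (% of TMM CPM per kilobase of merged exons) in infarcts 1 to 3 (I1 to I3) and contralateral cortices 1 to 3 (C1 to C3), for 8 steps. Hk1 fills 94.6% or more of the hexokinase bar in contralateral cortices and at most 38.3% in infarcts, and the Ldha and Eno1 segments are taller in every infarct than in any contralateral cortex.

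Lactate dehydrogenase exchanges pyruvate and lactate. The product of *Ldha*, the M subunit, is typical of lactate-producing tissue, and that of *Ldhb*, the H subunit, of lactate-using tissue. *Ldhb* (chr6:142490249-142507957) was at 185, 187 and 237 CPM in infarcts and 480, 458 and 637 CPM in contralateral cortices. *Ldha* (chr7:46841475-46855627) was at 168, 175 and 166 CPM against 162, 109 and 149 CPM. The regions were far apart for *Ldhb* and adjoined without overlap for *Ldha*. The log2 fold change of *Ldhb* was -1.37 ± 0.19 (edgeR adjusted *p* = 1.37e-04), and that of *Ldha* was 0.27 with a 95% interval from -0.10 to 0.65 (edgeR adjusted *p* = 0.176). The log2 ratio of *Ldha* to *Ldhb* per kilobase was -1.33 ± 0.23 in infarcts and -2.98 ± 0.30 in contralateral cortices, so that *Ldha* made up 28.6% ± 3.2 of the summed level in infarcts and 11.3% ± 2.1 in contralateral cortices. *Ldhb* remained the more abundant transcript in every library. The summed level was 181 ± 18 CPM per kilobase in infarcts and 377 ± 66 in contralateral cortices.

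Monocarboxylate transporters carry lactate across the plasma membrane. *Slc16a1* (chr3:104638668-104658462), which encodes MCT1 of endothelium, glia and many other cells, was at 337, 547 and 442 CPM in infarcts and 119, 114 and 117 CPM in contralateral cortices. *Slc16a3*, which encodes MCT4, the lactate exporter of highly glycolytic cells, was at 3.35, 3.01 and 3.07 CPM against 0.418, 0.912 and 0.554 CPM. *Slc16a7*, which encodes the neuronal high-affinity transporter MCT2, was at 26.7, 20.0 and 25.5 CPM against 40.4, 44.2 and 40.5 CPM. The regions were separate for all 3 genes, with infarcts above for *Slc16a1* and *Slc16a3* and below for *Slc16a7*. The log2 fold change was 1.93 ± 0.19 for *Slc16a1* (edgeR adjusted *p* = 1.78e-05) and 2.32 ± 0.40 for *Slc16a3* (5.91e-04). For *Slc16a7* it was -0.79 ± 0.17 (edgeR adjusted *p* = 0.002), short of the fold threshold. *Slc16a1* was the most abundant of the 3 per kilobase in both regions, at 97.3% ± 0.93 of the sum in infarcts and 87.8% ± 0.88 in contralateral cortices, and *Slc16a3* stayed below 1% in every library. The ratio of *Slc16a3* to *Slc16a1* overlapped between the regions, whereas that of *Slc16a7* to *Slc16a1* was lower in every infarct, by 2.70 on the log2 scale.

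Proteins that work with lactate transporters were examined from the second list. *Emb*, which encodes embigin, a chaperone of monocarboxylate transporters, was at 207, 173 and 130 CPM in infarcts and 27.6, 28.7 and 25.9 CPM in contralateral cortices (log2 fold change 2.63 ± 0.19, edgeR adjusted *p* = 2.15e-06). *Bsg*, which encodes the related chaperone basigin, overlapped at 165 to 229 CPM and 148 to 198 CPM (0.23 ± 0.18, edgeR adjusted *p* = 0.285). *Hcar1*, which encodes a lactate receptor, was at 36.2, 20.9 and 22.5 CPM against 4.39, 2.54 and 1.66 CPM (3.17 ± 0.36, edgeR adjusted *p* = 6.24e-05). Every infarct exceeded every contralateral cortex for *Emb* and *Hcar1*.

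Pyruvate dehydrogenase kinases switch off the entry of pyruvate into the citric acid cycle. None of the 4 genes was called. *Pdk1* was at 60.1, 49.6 and 58.0 CPM in infarcts and 81.3, 95.9 and 83.0 CPM in contralateral cortices (log2 fold change -0.63 ± 0.14, edgeR adjusted *p* = 0.00339). *Pdk2* was at 34.3, 28.9 and 44.6 CPM against 63.4, 54.1 and 63.5 CPM (-0.75 ± 0.18, edgeR adjusted *p* = 0.00531). Both were separate between the regions and short of the fold threshold. *Pdk3* and *Pdk4* overlapped, with log2 fold changes of -0.24 (95% interval -0.67 to 0.20) and 0.12 (-0.34 to 0.57). On the opposing side, the phosphatase gene *Pdp1* was at 48.6, 61.0 and 57.0 CPM against 282, 402 and 361 CPM, a log2 fold change of -2.65 ± 0.18 (edgeR adjusted *p* = 1.62e-06), whereas its paralog *Pdp2* was 0.68 ± 0.19 (edgeR adjusted *p* = 0.0114). Of the 5 genes of the pyruvate dehydrogenase complex, *Dlat* (-1.16 ± 0.18) and *Pdhx* (-1.05 ± 0.20) were called lower, 4 were lower by adjusted *p* alone and none was higher. Of all tested genes, 20.9% were called lower and 30.8% were lower by adjusted *p* alone. Of the 2 mitochondrial pyruvate carrier genes, *Mpc1* was called lower (-1.17 ± 0.35, edgeR adjusted *p* = 0.0142), with contralateral cortex 3 at 4.15 CPM close to the highest infarct at 4.04 CPM. The calls of *Pdhx* and *Mpc1* were lost without infarct 1 (-0.89 and -0.98) and without contralateral cortex 1 (-0.99 and -1.08), and that of *Mpc1* also without contralateral cortex 2 (-0.93). With library totals the calls of *Dlat* (-0.96), *Pdhx* (-0.85) and *Mpc1* (-0.96) were lost, as they were with glmTreat against a fold of 2. *Pdhb*, which was not called, passed without contralateral cortex 1 (-1.01).

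Of the 4 members of the pentose phosphate pathway, 3 were called higher in infarcts, where 25.7% of all tested genes were called higher. *G6pdx*, which encodes glucose-6-phosphate dehydrogenase, the entry enzyme, was at 69.8, 49.0 and 47.3 CPM in infarcts and 14.0, 14.7 and 16.3 CPM in contralateral cortices. *Pgd*, which encodes the next NADPH-producing enzyme, was at 139, 101 and 106 CPM against 23.0, 16.5 and 24.3 CPM. *Taldo1*, the transaldolase of the nonoxidative arm, was at 70.3, 42.5 and 49.4 CPM against 19.9, 17.1 and 17.4 CPM. Each infarct was above each contralateral cortex for these 3 genes, and infarct 1 was the highest for all of them. The log2 fold changes were 1.88 ± 0.19 (*G6pdx*, edgeR adjusted *p* = 2.22e-05), 2.44 ± 0.20 (*Pgd*, 5.06e-06) and 1.58 ± 0.21 (*Taldo1*, 1.11e-04). *G6pdx* shares 13.6% of its exon bases with a gene on the opposite strand, and the strand setting of the counting is not given. *Tkt*, the transketolase of the nonoxidative arm, was at 79.6, 44.2 and 65.1 CPM against 45.7, 44.9 and 67.7 CPM. It overlapped and was not called (0.26, 95% interval -0.29 to 0.80, edgeR adjusted *p* = 0.376).

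The second list held 8 further genes of this pathway, of which 6 were tested and 3 were called higher, against 25.7% of all tested genes. *H6pd*, the enzyme that starts the same pathway inside the endoplasmic reticulum, was at 55.4, 35.6 and 36.5 CPM against 6.63, 6.64 and 8.77 CPM (log2 fold change 2.54 ± 0.23, edgeR adjusted *p* = 9.73e-06). *Pgls*, the lactonase between the products of *G6pdx* and *Pgd*, had a log2 fold change of 1.45 ± 0.29 (edgeR adjusted *p* = 0.00139), and *Shpk*, a sedoheptulose kinase, of 1.37 ± 0.26 (0.00116). *Pgls* shares 20.6% of its exon bases with a gene on the same strand. *Rpia* and *Rpe*, which interconvert pentose phosphates, were higher by adjusted *p* but not by fold (0.86 and 0.45). *Tktl2*, at 1.66 CPM or below, had a log2 fold change of -1.57 ± 0.64 (edgeR adjusted *p* = 0.0505). None of the 8 was called lower in the main comparison. *Rpia* passed the fold threshold without contralateral cortex 1 (1.20) and with library totals (1.05), and *Tktl2* was called lower without infarct 2 (-2.27), with RLE size factors (-1.58, edgeR adjusted *p* = 0.0476) and with upper quartile scaling (-1.59, edgeR adjusted *p* = 0.047).

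**Figure D4:**
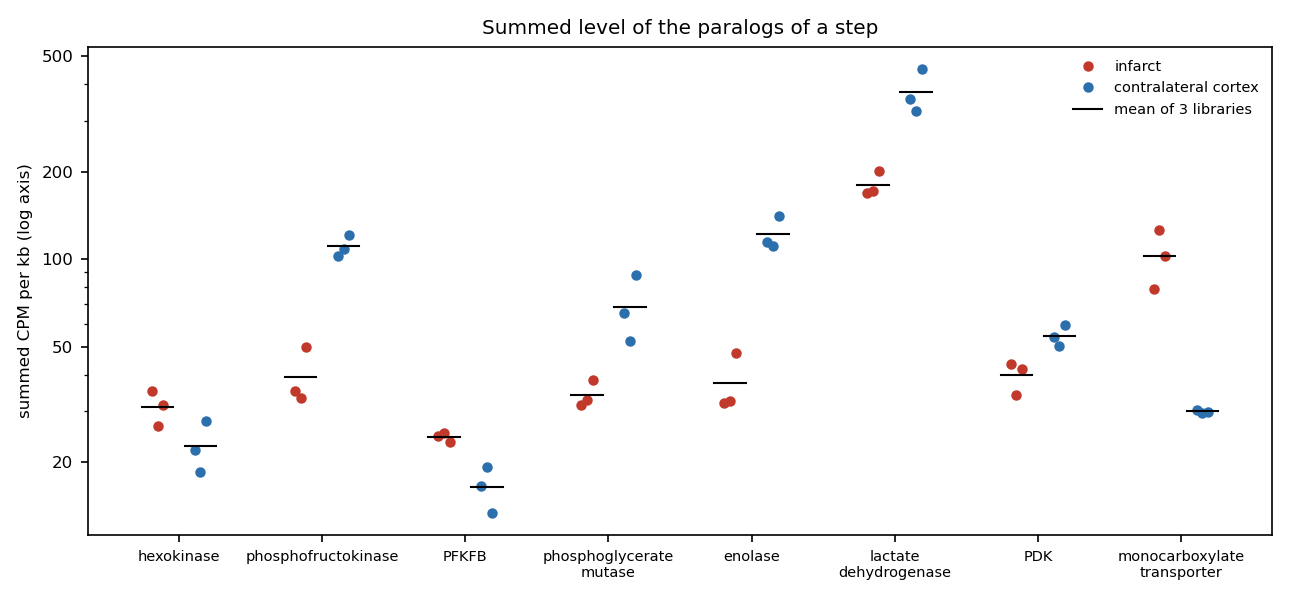
Summed level of the paralogs of each of 8 steps (TMM CPM per kilobase of merged exons, log axis) in each infarct (red) and contralateral cortex (blue), with black bars for the mean of 3 libraries. The monocarboxylate transporter and PFKFB sums are higher in every infarct, 5 sums are lower in every infarct and the hexokinase sums overlap.

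Set side by side, the sums of 2 of 8 steps were higher in every infarct, 5 were lower in every infarct and 1 overlapped, as the plot of summed levels shows. Monocarboxylate transporters summed to 103 ± 23 CPM per kilobase in infarcts and 29.9 ± 0.32 in contralateral cortices, and PFKFB genes to 24.5 ± 0.87 and 16.4 ± 2.9. Phosphoglycerate mutase summed to 34.2 ± 3.7 and 68.6 ± 18, and the kinases of pyruvate dehydrogenase to 39.8 ± 5.1 and 54.4 ± 4.4. Of 18 paralog ratios, 11 were higher in every infarct, 2 were lower in every infarct and 5 overlapped. The direction of a ratio depends on which paralog was put in the denominator. Several ratios share a denominator, so these counts are not 18 separate results. Of all tested genes, taken singly, 37.6% were higher in every infarct and 34.7% lower. Each nonoverlapping sum or ratio had a two-sided exact permutation *p* of 0.1, the smallest that 3 against 3 libraries can give, and the Benjamini-Hochberg adjusted values over the 8 sums and the 18 ratios were 0.114 and 0.1385 (exact permutation test). These tests could therefore not reach 0.05.

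In all, 43 of the 52 genes of the second list were tested, 9 were called higher and 9 lower, where 25.7% and 20.9% of all tested genes were called, so these shares were not above those of all genes. Their median log2 fold change was -0.14. Among the called genes not yet named, *Gpd1*, which links glycolysis to glycerol lipids, was lower (-1.71 ± 0.37, edgeR adjusted *p* = 0.00323). The glycogen phosphorylase genes diverged: *Pygl*, the liver form, was called higher (3.30 ± 0.23, edgeR adjusted *p* = 1.95e-06), *Pygm*, the muscle form found in astrocytes, was called lower (-1.09 ± 0.33, adjusted *p* = 0.0159) and *Pygb*, the brain form, was 0.93 ± 0.15 (adjusted *p* = 3.47e-04), short of the fold threshold. The *Pygm* call was lost without infarct 2 (-0.81), infarct 3 (-0.996) or contralateral cortex 3 (-0.87), and *Pygb* passed without infarct 2 (1.04). *Egln3*, an oxygen-sensing hydroxylase induced by hypoxia, was higher (1.84 ± 0.20, edgeR adjusted *p* = 3.10e-05). *Fbp2* and *Pck1*, which serve gluconeogenesis, were at 0 counts in every library.

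**Figure D5:**
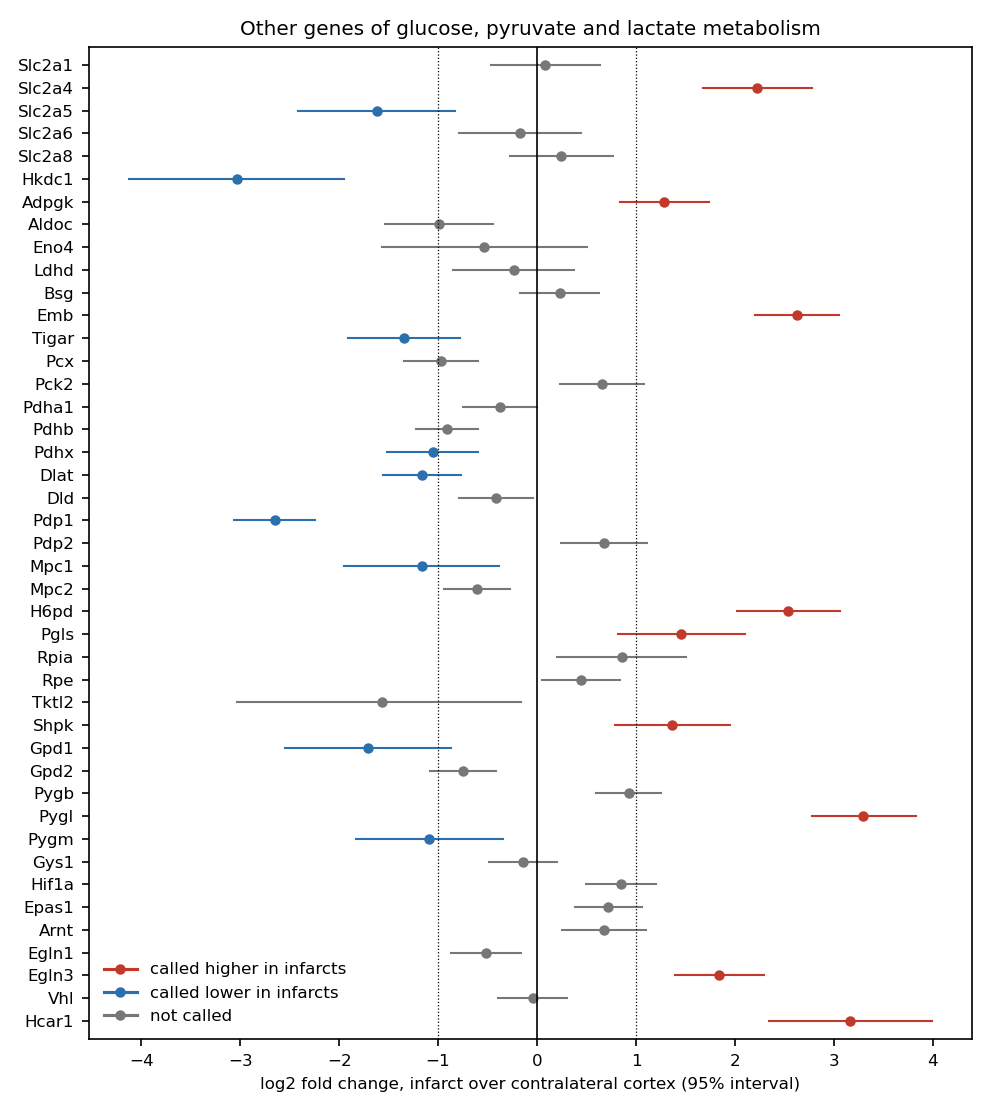
Log2 fold change, infarct over contralateral cortex, of the 43 tested genes of the second list, drawn as edgeR estimates with 95% intervals and dotted lines at a log2 fold change of 1 in either direction. The 9 genes called higher (red) include Pygl at 3.30 and Hcar1 at 3.17, and the 9 called lower (blue) include Hkdc1 at -3.03 and Pdp1 at -2.65.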

How the data were processed

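RNA had been extracted from infarcts and contralateral cortices and made into stranded mRNA libraries that were sequenced as paired 75-base reads. Per the labels and the methods of the study, the authors demultiplexed with bcl2fastq 2.19, trimmed with Trimmomatic 0.32, aligned to GRCm38 with STAR 2.5.2b and counted with HTSeq. The deposited values are raw counts per Ensembl gene. The annotation and strand setting of the counting are not given in the sources used here. Exon overlap with other genes was not limited to the genes for which it is given above. Same-strand exons covered 15.34% of *Pkm* and 10.21% of *Pfkm* exon bases. Opposite-strand exons covered 23.05% of *Mpc1*, 22.25% of *Bnip3* and 22.47% of *Higd1a*. Each table has 5 tallies without a gene name, which were not used. Between 65.7% and 73.4% of the tallied reads fell on genes, and 14.1% to 18.2% had several alignments.

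Identifiers were matched to GENCODE M21, in which 45229 were found and 849 were not. Counts were filtered with filterByExpr, scaled with TMM and fitted with region as the only term (glmQLFit, robust, and glmQLFTest) in edgeR 4.0.16 under R 4.3.3, with Benjamini-Hochberg adjustment of *p* over 15554 genes. Standard errors are the size of the log2 fold change divided by the square root of the F statistic. Levels were divided by merged exon length where genes are compared, and log2 ratios were formed after adding 0.5 counts. Sums and ratios were compared with two-sided exact permutation tests in SciPy 1.17.1. Other software was pandas 2.3.3 and matplotlib 3.10.9. Precision depended on the spread between the 3 libraries of a region and, for genes with few counts, on totals of 11943570 to 19933962 counts. The edgeR procedure was tested on simulated data in which far fewer genes differed than were called here, as many up as down. That test therefore does not cover a shift as broad as the one between these regions.

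All members were named, and from the second list the genes called or needed beside a member. *Slc2a1*, *Bsg*, *Pdp2*, *Pdhb*, *Rpia*, *Rpe*, *Tktl2* and *Pygb*, which were not called, were named as paralogs, partners or neighbors in the pathway after their values were seen. *Aldoc* was named for the ratio to *Aldoa*. *Hif1a*, *Epas1*, *Arnt*, *Egln1* and *Vhl*, which were not called, were also named, as regulators of the response to hypoxia. *Fbp2* and *Pck1* were named as genes without counts. The marker sums without *Slc1a2* or *Acta1* were added after the values were seen, and *Tnni2*, *Mylpf*, *Myh2*, *Myh1* and *Mb* were named then. The members and lists were chosen with earlier results of these data known. The alternatives were DESeq2 1.42.0, other scalings, other filters on low counts, other fold thresholds, other gene lengths, the replicate number as a block and each library left out in turn.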

Additional observations from a re-analysis of the deposited data

How the results depend on the processing

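The 10 calls of higher members were kept in every alternative, except that *Eno3* was lost with glmTreat against a fold of 2 and *Hk3* and *Slc16a3* were not tested when at least 10 counts were required in every library. The count of lower members, 8, became 5 with library totals, 4 with glmTreat and 18 by adjusted *p* alone. *Hk1* and *Pfkp* were lost with library totals (-0.96 and -0.95) and with glmTreat, *Pfkfb2* with glmTreat, and *Pgam1* in most alternatives. Library totals shifted the median over all genes by 0.20 (log2), and under them *Pfkfb1* was called higher (1.22, edgeR adjusted *p* = 0.0469). Of the second list, 18 genes were called, 9 higher and 9 lower. The total was 10 with glmTreat and 33 by adjusted *p* alone, with 17 higher and 16 lower, and the count of lower genes was 5 with library totals and 4 with glmTreat. Leaving out 1 library gave 6 to 8 lower members and 17 to 20 called genes of the second list. The log2 fold change of *Bpgm* changed sign, to -0.0107 with upper quartile scaling, -0.0098 with the replicate block and between -0.1193 and 0.1972 on leaving out 1 library. The log2 difference of the hexokinase sum was -0.0227 with coding transcript lengths and -0.0948 without length scaling. That of the PFKFB sum was 0.80 and that of the PDK sum -0.25 with library totals, and that of the lactate dehydrogenase sum was -0.85 with library totals and -0.83 without length scaling. The cause of these changes was not tested. Infarcts and contralateral cortices of the same number shared little (correlations of -0.19, 0.10 and 0.0011), and not every library correlated best with its own number. With the replicate block, 10 members were higher and 7 lower, *Pgam1* being lost at -0.98, and 19 genes of the second list were called. Genes under about 1 CPM, such as *Pgam2* and *Pfkfb1*, are limited by depth.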

Other observations

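A list of 13 genes that hypoxia induces in many cells was read beside the pathway genes, with *Egln3* on both lists. By edgeR's quasi-likelihood test 5 of the 13 were called higher in infarcts and 2 lower, where 25.7% and 20.9% of all tested genes were called, and the median log2 fold change was 0.29. The higher genes were *Ndrg1* (2.25 ± 0.17), *Adm* (2.28 ± 0.43), *Egln3*, *P4ha1*, a collagen prolyl hydroxylase (1.11 ± 0.15), and *Car9*, a carbonic anhydrase with 28, 23 and 46 counts in infarcts and 0, 2 and 1 in contralateral cortices. *Ndrg1*, which oligodendrocytes also express, was at 198, 156 and 188 CPM in infarcts and 39.1, 31.6 and 43.3 CPM in contralateral cortices. The lower genes were *Bnip3*, a mitophagy receptor that was at 48.2, 61.8 and 64.0 CPM against 159, 205 and 199 CPM (-1.69 ± 0.17), and *Higd1a* (-1.04 ± 0.21), whose call was lost without infarct 1 (-0.97) or infarct 2 (-0.86). *Vegfa*, the angiogenic growth factor, overlapped between the regions at 16.7 to 34.7 CPM and 31.4 to 47.8 CPM and was not called (-0.80 ± 0.28, edgeR adjusted *p* = 0.0318), but was called lower without infarct 2 (-1.14).

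Regulators of the response to hypoxia were taken from the second list. *Hif1a* was at 363, 306 and 276 CPM in infarcts and 163, 192 and 170 CPM in contralateral cortices (0.85 ± 0.16, edgeR adjusted *p* = 0.00101), and *Epas1*, the related factor of endothelium, at 402, 328 and 362 CPM against 240, 208 and 214 CPM (0.72 ± 0.15, adjusted *p* = 0.00197). Both were separate between the regions and short of the fold threshold. With library totals *Hif1a* passed it (1.05, edgeR adjusted *p* = 2.19e-04). For *Arnt* the log2 fold change was 0.68 ± 0.19 (edgeR adjusted *p* = 0.00971). The oxygen sensor *Egln1* had a log2 fold change of -0.52 ± 0.16 (edgeR adjusted *p* = 0.0155), whereas that of *Vhl* was -0.04 ± 0.15 (0.818). Of the oligodendrocyte markers 4 of 8 were called higher in infarcts, and of the endothelial markers 2 of 7, where 25.7% of all tested genes were called higher. The endothelial share was near that of all tested genes. The part of these cell types in the values was not tested. The markers of the remaining lists gave 3 of 3 tested plasma cell genes called higher (165 to 2029 CPM in infarcts, 1.72 to 3.51 CPM in contralateral cortices), and 2 of 4 tested choroid plexus genes (15.1 to 24.7 CPM against 7.05 to 7.66 CPM).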
